A study of Mus musculus with 6 samples.

Results

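The genes described here are 10 genes of the ATF4 branch of the integrated stress response. Earlier results of these data were known beforehand, among them the study's report of reduced Atf5. The 10 genes were chosen by name from knowledge of the pathway and not by a threshold on their values. They comprise 4 transcription factor genes (Atf4, Atf5, Atf3 and Ddit3, which encodes CHOP), 2 feedback or effector genes (Trib3 and Chac1), 3 genes of amino acid synthesis (Asns, Psat1 and Phgdh) and 1 amino acid transporter gene (Slc7a11). They make up 10 of the 55471 gene identifiers counted, of which 30928 had a count in at least 1 sample. All 10 genes had counts in every sample and received an adjusted p-value.

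In the integrated stress response, kinases that sense unfolded protein, amino acid shortage, double-stranded RNA or heme deficiency phosphorylate the initiation factor eIF2. General translation then slows, while the mRNA of Atf4 is translated more efficiently through its upstream open reading frames. ATF4 protein, often paired with C/EBP family partners, switches on genes for amino acid uptake and synthesis and for tRNA charging, and under lasting stress it raises CHOP, which favours apoptosis. Because ATF4 is controlled largely at translation, its read counts do not measure the protein, and its target genes are the usual transcript readout of the pathway.

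RNA was sequenced from the most rostral telencephalic primordium of mouse embryos at E11.5, in 3 control and 3 Rx-Dicer libraries. Both genotypes carried floxed Dicer alleles (Dicer F/F), and the Rx-Dicer embryos also carried a Cre transgene under regulatory sequences of Rax (Rx), a gene of the early eye and forebrain field, so that Dicer, the enzyme that releases mature miRNAs, was deleted. The control libraries are labelled wild type in 1 field and Dicer F/F in another. Per the study, this Cre recombines most in the rostral and ventral telencephalon and less in the neocortex, and the recombined share of each library was not measured here. The study calls its replicates independent and biological, but whether 1 embryo or several went into each library is not stated. P-values therefore set the genotype difference against the spread between these libraries, which need not be that between single embryos.

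Libraries held between 34471501 and 48373468 counts on genes. Dicer1 itself had 6355, 7070.2 and 6270.4 normalised counts in control samples 1 to 3, and 4777, 7002 and 4644 in Rx-Dicer samples 1 to 3 (log2FC -0.26 ± 0.17 SE, DESeq2 adjusted p = 0.567). The library labelled Rx-Dicer 2 therefore had Dicer1 counts at the control level. The count is over the whole gene, not the floxed part alone, so it does not show how far Dicer was deleted. Rx-Dicer 2 is named by its label throughout, with some results also given without it. With 1 library left out in turn, the Dicer1 log2FC ran from -0.47 to -0.16. Over 17 alternative fits and thresholds its adjusted p (DESeq2 or edgeR) ran from 0.00088 to 0.945, and Dicer1 was called lower in 1 of them. The 8 markers of the hypothalamus and optic field summed to 431 to 687 normalised counts in control libraries and to 1407, 2759 and 1960.2 in Rx-Dicer libraries 1 to 3, with 1 called higher and Nkx2-4 and Vax2 at 0 in at least 1 library. Much of that sum was Nkx2-1, which is also a marker of the ventral telencephalon and was singled out after its values were seen (3.66, 51.9 and 192 in control, 682, 1882 and 1307 in Rx-Dicer samples). Without it the sums were 379 to 495 in control and 653 to 877 in Rx-Dicer libraries. Of all genes tested by DESeq2, 1.75% were called higher and 1.18% lower. The 10 markers of the rostral telencephalon were present in every library, with 1 called higher and 2 called lower. They summed to 110042 to 128129 normalised counts in control and 95758 to 108996 in Rx-Dicer samples, ranges that did not overlap. The marker lists here and below share genes, so calls in different lists can be repeats. Nkx2-1 is in the hypothalamus and ventral lists, Emx2 and Pax6 in the rostral and dorsal lists, and Dlx2 and Gsx2 in the rostral and ventral lists. In such bulk tissue, fewer cells of a type and less RNA per cell cannot be told apart.

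Half-site pairs bound by ATF4 with a C/EBP partner are read as the composite element TGATGNAAN, or NTTNCATCA on the other strand. This word was searched in RefSeq promoter windows of GRCm38.p6, which span 250 bases before to 50 after each gene start. All 10 genes matched a window, and 5 of them held the element, 6 elements in all. Of the 27025 genes searched, 4.5% held one. The 10 were chosen by name as genes of the ATF4 pathway, so setting these shares side by side is not a test. The matching stretches are printed because they show which of these genes carry the letters at their start. Each runs 5′ to 3′ on the gene's own strand, with the element in capitals.
Atf3, chr1:191183426-191183454, minus strand: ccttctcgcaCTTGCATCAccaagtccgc
Trib3, chr2:152344029-152344057, minus strand: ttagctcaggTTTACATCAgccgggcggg
Chac1, chr2:119351038-119351066, plus strand: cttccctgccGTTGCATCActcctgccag
Asns, chr6:7693214-7693242, minus strand: cccagccacaTGATGAAACttcccgcacg
Slc7a11, chr3:50443643-50443689, minus strand: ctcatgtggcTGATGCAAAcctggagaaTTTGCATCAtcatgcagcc
Relative to the RefSeq gene start of each window, the element began at position -111 in Atf3, -194 in Chac1 and -23 in Asns, at -66 and -48 in Slc7a11, and at 14 in Trib3. The windows of Atf4, Atf5, Ddit3, Psat1 and Phgdh did not hold these letters.

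Since Dicer releases mature miRNAs, the annotated 3′ UTRs were also searched for the 8-base words that pair with the seeds of let-7 and miR-9, families abundant in embryonic brain. The mature sequences are shown with the seed, bases 2 to 8, in capitals.
mmu-let-7a-5p: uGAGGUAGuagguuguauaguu
mmu-miR-9-5p: uCUUUGGUuaucuagcuguauga
The let-7 word CTACCTCA occurred in 3.25% and the miR-9 word ACCAAAGA in 4.38% of 21021 genes with a 3′ UTR, and 0 of the 10 genes held either word.

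Per length, the 10 genes spanned a wide range of levels in control tissue. The 3 highest were Phgdh at 119.6 ± 10.3 CPM per kilobase of exon (mean ± SD, n = 3), Atf4 at 78.6 ± 7.41 and Psat1 at 58.1 ± 11.6, and their control values did not overlap. Atf5 followed at 32.2 ± 1.60 and Asns at 13.4 ± 1.44. Ddit3 (3.44 ± 0.464) and Trib3 (2.83 ± 1.08) overlapped. Slc7a11 (0.797 ± 0.289), Atf3 (0.698 ± 0.0390) and Chac1 (0.480 ± 0.194) formed the lowest group, and each overlapped with its neighbour in the order. The enzymes of serine synthesis and Atf4 itself were thus abundant transcripts, while the stress-inducible Atf3 and Chac1 were scarce, with raw counts of 447 and 186 over all 6 libraries together.

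Atf4, the central factor of the pathway, had 7164, 8866 and 7616 normalised counts in control samples 1 to 3, and 7564, 6413 and 7847 in Rx-Dicer samples 1 to 3. The groups overlapped, and 5 of the 6 values lay within 7164 and 8866, with Rx-Dicer 2 below them. The log2FC was -0.12 ± 0.14 (SE, n = 3 per genotype), with a 95% interval from 0.768-fold to 1.11-fold and an adjusted p of 0.851 (DESeq2).

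Atf5 encodes a related basic leucine zipper factor whose mRNA is, like that of Atf4, translated preferentially when eIF2 is phosphorylated, and which is also known from neural progenitors. Its normalised counts were 2828, 2638 and 2709 in control samples 1 to 3, and 2091, 1603 and 2116 in Rx-Dicer samples 1 to 3. All Rx-Dicer values were below all control values, and the control values lay close together. Atf5 fell to 0.711-fold (95% interval 0.586 to 0.862), a log2FC of -0.49 ± 0.14 with a DESeq2 adjusted p of 0.0275. It was the only one of the 10 genes to be called, which required an adjusted p below 0.05 together with a log2FC beyond 0.32 in either direction.
The call on Atf5 was close to its limits. By edgeR's quasi-likelihood test the unadjusted p was 0.00363 and the adjusted p 0.186. The DESeq2 adjusted p was 0.0945, 0.106 and 0.0999 when control 1, 2 or 3 was left out, and 0.0115 without Rx-Dicer 2, where the log2FC was -0.37.

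Atf3, a stress-inducible repressor and activator downstream of ATF4, had 62.3, 69.3 and 60.1 normalised counts in control and 108, 83.5 and 53.2 in Rx-Dicer samples. The first and second Rx-Dicer values exceeded every control and the third was the lowest of all 6. The log2FC was 0.36 ± 0.35 with an adjusted p of 0.794 (DESeq2), and at this depth the 95% interval ran from 0.799-fold to 2.05-fold.
Ddit3, the gene of the pro-apoptotic factor CHOP, had 210.1, 268 and 272 normalised counts in control and 261, 211 and 229 in Rx-Dicer samples. The ranges were almost the same in both genotypes. The log2FC was -0.10 ± 0.20 (DESeq2 adjusted p = 0.937), with a 95% interval from 0.708-fold to 1.23-fold. A second Ddit3 identifier covers 105 bases that both share on 1 strand, 6.13% of the exon bases of the first. It had 0 counts in every sample, since reads in the shared bases were assigned to neither.

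**Figure D1:**
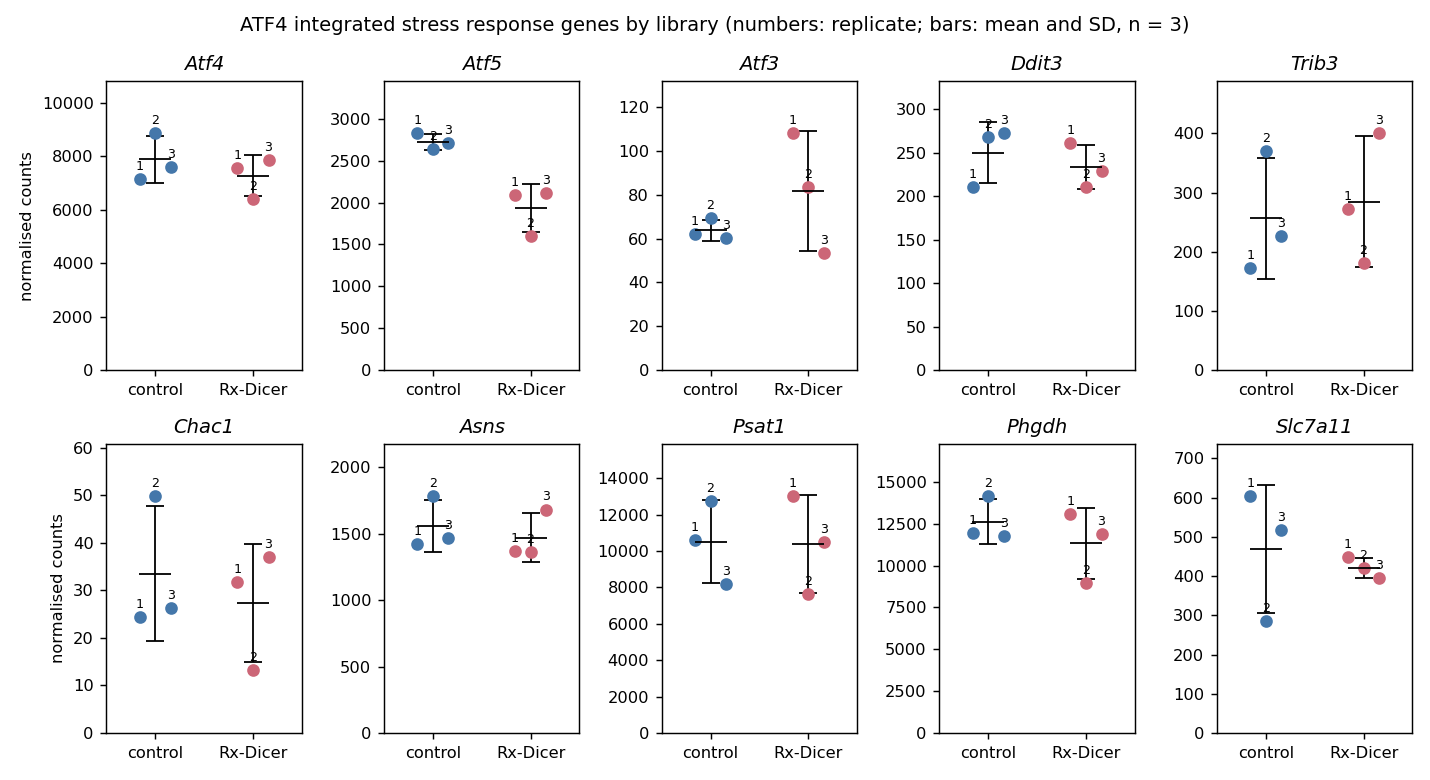
Normalised counts (linear axis from 0) of each of the 10 genes in the control libraries (blue) and the Rx-Dicer libraries (red), with replicate numbers beside the points and bars for the mean and SD (n = 3). Atf5 is the only gene whose groups do not overlap, at 2638 to 2828 in control and 1603 to 2116 in Rx-Dicer samples.

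Trib3, a pseudokinase gene that ATF4 and CHOP induce and that restrains both, had 172, 371 and 226 normalised counts in control and 273, 181 and 400.2 in Rx-Dicer samples. Its values varied widely within each genotype (coefficient of variation 40.0% and 38.6%) and the groups overlapped throughout. The log2FC was 0.15 ± 0.32 (DESeq2 adjusted p = 0.942), with a 95% interval from 0.718-fold to 1.72-fold.
Chac1 encodes an enzyme that degrades glutathione and is among the most inducible targets of ATF4 and CHOP. It had 24.4, 49.9 and 26.3 normalised counts in control and 31.7, 13.2 and 37.1 in Rx-Dicer samples. Both the highest value (control 2) and the lowest (Rx-Dicer 2) stood apart from the other four. The log2FC was -0.29 ± 0.54 (DESeq2 adjusted p = 0.928), and the 95% interval from 0.391-fold to 1.70-fold was the widest of the 10.

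Asns encodes asparagine synthetase, the classic target of amino acid shortage. By the RefSeq starts of the windows, its promoter element lies closest to the gene start among those that precede it. The GENCODE annotation starts the gene at chr6:7693254, which places the element after that start. Asns had 1425, 1785 and 1468 normalised counts in control and 1367, 1361 and 1683 in Rx-Dicer samples. Control 2 and Rx-Dicer 3 were high and the other four lay between 1361 and 1468. The log2FC was -0.09 ± 0.15 (DESeq2 adjusted p = 0.922), with a 95% interval from 0.767-fold to 1.16-fold.
Phgdh encodes the enzyme that opens serine synthesis from glycolysis. It had 11977, 14174 and 11764 normalised counts in control and 13109, 8980.0 and 11900.1 in Rx-Dicer samples. Rx-Dicer 2 was low and the other five lay between 11764 and 14174. The log2FC was -0.16 ± 0.16 (DESeq2 adjusted p = 0.803), with a 95% interval from 0.723-fold to 1.11-fold.
Psat1, the second enzyme of the same route, had 10598, 12755 and 8208 normalised counts in control and 13037, 7631 and 10482 in Rx-Dicer samples. Each genotype held a high, a middle and a low library. The log2FC was -0.02 ± 0.20 (DESeq2 adjusted p = 0.992), with a 95% interval from 0.749-fold to 1.30-fold.
Slc7a11 encodes the cystine and glutamate exchanger that feeds glutathione synthesis. It had 605, 286 and 517 normalised counts in control and 448, 420 and 395 in Rx-Dicer samples. The Rx-Dicer values were close together and lay inside the control range. The log2FC was -0.16 ± 0.25 (DESeq2 adjusted p = 0.905), with a 95% interval from 0.643-fold to 1.252-fold.

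Of the 10 genes, 0 were called higher and 1 was called lower in Rx-Dicer samples by DESeq2. Across the 17127 genes tested, 1.75% were called higher and 1.18% lower, 2.93% in all. By edgeR 0 of the 10 were called, against 0.0446% of all genes tested with that tool, and 1 of the 10 had an unadjusted p under 0.05 by either tool, against 13.1% (DESeq2) and 12.9% (edgeR). Groups that did not overlap were found for 0 of the 10 in the upward and 1 in the downward direction, Atf5, beside 8.47% and 10.5% of all genes with a mean of at least 10 normalised counts, 18.9% in either direction. The log2FC was above 0 for Atf3 and Trib3 and below 0 for the other 8. Their median was -0.11, beside -0.0009 over all genes tested and a within-group SD of 0.181 for the median of the 10. A decrease of 1.5-fold lay within the 95% intervals of Atf5, Chac1 and Slc7a11, and an increase of that size within those of Atf3, Trib3 and Chac1.

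**Figure D2:**
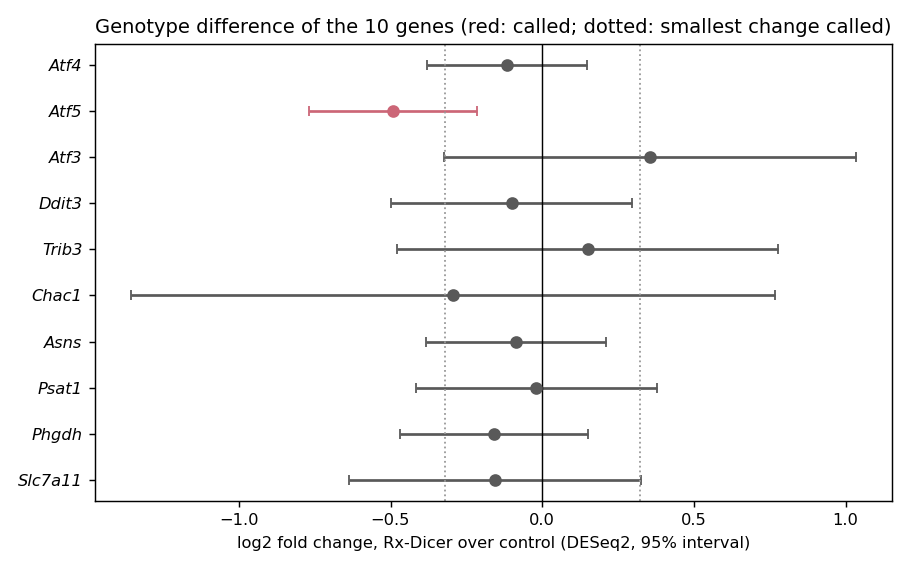
Points give the log2 fold change of each gene, Rx-Dicer over control, and bars its 95% interval from DESeq2, with the called gene in red and dotted lines at a log2 fold change of 0.32 in either direction, the smallest that was called. The interval of Atf5 ends below 0, from -0.77 to -0.21, and those of the other 9 genes include 0.

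**Figure D3:**
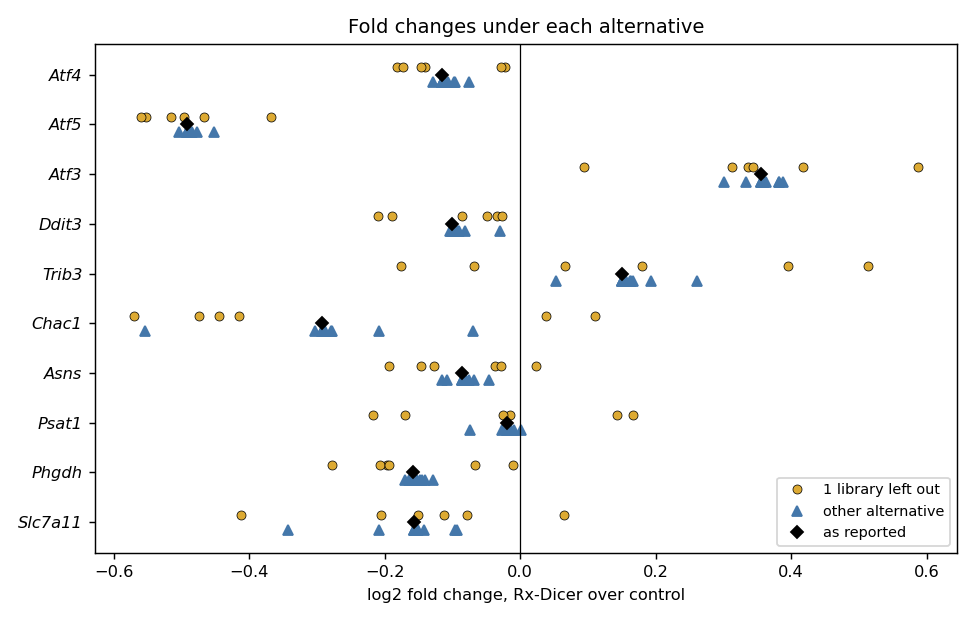
Log2 fold change of each gene as reported (black), with each library left out in turn (yellow) and under the other alternatives (blue). Atf5 stays between -0.56 and -0.37, whereas Trib3, Chac1, Asns, Psat1 and Slc7a11 have values on both sides of 0.

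The 10 genes varied between libraries in ways that crossed the genotypes. The library labelled Rx-Dicer 2 was the lowest of the 6 for 6 of the 10 genes, while 22.6% of all 17770 genes with a mean of at least 10 normalised counts were lowest there. Control 2 was the highest for 4 of the 10, against 17.8% of all genes. The 4 were Atf4, Chac1, Asns and Phgdh, and control 2 was the lowest library for Slc7a11.
The same library, together with Rx-Dicer 3, also carried the most erythroid transcripts. The 9 erythroid markers, globins and heme synthesis genes among them, summed to 995852 normalised counts in control 2 and 991772 in Rx-Dicer 3, against 351745 to 470280 in the other four, with none at 0. Control 2 and Rx-Dicer 3 were also the top pair for Atf4, Trib3, Chac1 and Asns and held the lowest values of Slc7a11. The part of erythroid cells in these values was not tested. The other five genes, Atf5, Atf3, Ddit3, Psat1 and Phgdh, did not share that order. For Atf5, control 2 had the lowest of the control values and Rx-Dicer 3 the highest of the Rx-Dicer values, and for Atf3, Rx-Dicer 3 was the lowest library of all.
Markers of the ventral telencephalon were highest in Rx-Dicer 2 (18243) and control 3 (12648) and lay between 4944 and 6665 elsewhere. Of these 7, none was at 0 and 1 was called higher, beside 1.75% of all genes. Markers of the dorsal telencephalon were lowest in the same pair (19882 and 26482 against 30484 to 43927). Of these 7, none was at 0 and 2 were called lower, beside 1.18% of all genes. Rx-Dicer 2 was also the lowest library for Atf5. In the fit without that library, Atf5 was still called. Without control 3, the other library of the pair, the call was lost (log2FC -0.50, DESeq2 adjusted p = 0.0999). The call was also lost when any other control was left out. The part of regional composition in the Atf5 difference was not tested.

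**Figure D4:**
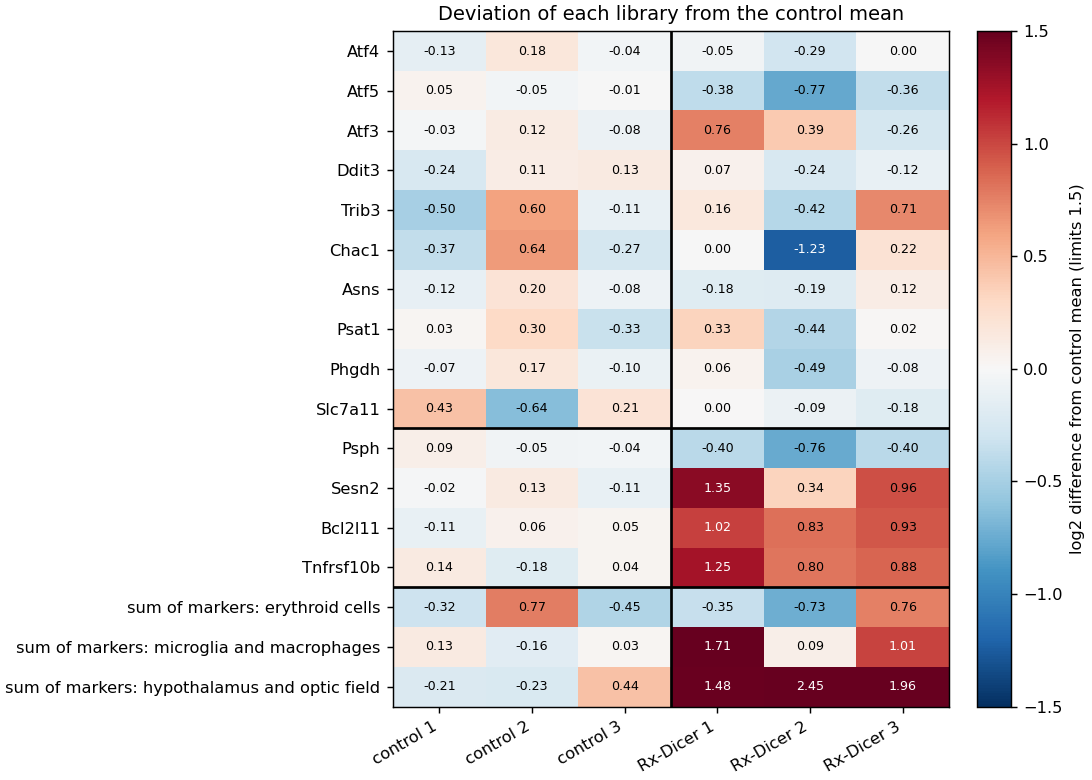
Each cell gives a library's log2 difference from the mean of the control libraries, for the 10 genes (upper block), 4 further pathway genes that were called (middle block) and the summed markers of 3 cell populations (lower block), with colour limits at 1.5 in either direction. Atf5 and Psph are low in all Rx-Dicer libraries, and the erythroid sum is high in control 2 and Rx-Dicer 3.

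To set these genes in their pathway, 121 further genes were grouped in 11 lists that follow the response from its sensors to its outputs. Of these, 120 had a count and 117 an adjusted p, and DESeq2 called 3 higher and 1 lower, beside 1.75% and 1.18% of all genes, while edgeR called 1. The list of the eIF2 kinases, eIF2, its exchange factor eIF2B and the eIF2 phosphatase held 18 genes, among them the kinase regulators Gcn1, Impact, Oma1 and Dele1. The log2FC of the 18 lay between -0.21 and 0.21, with 0 calls and 0 unadjusted p under 0.05 by DESeq2 and by edgeR. The smallest p in that list belonged to Eif2b2, a subunit of eIF2B (log2FC -0.21, DESeq2 adjusted p = 0.567). Among 7 basic leucine zipper partners of ATF4, the same counts were 0, and Nfe2l2, the gene of NRF2, had a log2FC of 0.26 (DESeq2 adjusted p = 0.491).

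Amino acid genes beyond the 10 gave 1 call. Of 9 transporter genes, 0 were called and 0 had an unadjusted p under 0.05 by DESeq2 or edgeR, with Slc7a5, the large neutral amino acid transporter, at a log2FC of -0.23 (DESeq2 adjusted p = 0.596). Of 13 enzymes of amino acid synthesis and one-carbon metabolism, 1 was called lower and 9 had a log2FC below 0.
The called enzyme was Psph, which completes serine synthesis after Phgdh and Psat1. It had 975, 888 and 893 normalised counts in control and 694, 542 and 696 in Rx-Dicer samples, so that all Rx-Dicer values were below all controls. Psph fell by 0.51 ± 0.15 on the log2 scale (DESeq2 adjusted p = 0.0369, edgeR adjusted p = 0.207), and 9 of its 17 alternatives lost the call. As for Atf5, the lowest value was that of Rx-Dicer 2, and without that library the log2FC was -0.40 (DESeq2 adjusted p = 0.0494). Of the 13 tRNA synthetase and tRNA export genes 0 were called, and 2 (DESeq2) or 3 (edgeR) had an unadjusted p under 0.05. Yars, the tyrosyl-tRNA synthetase gene, had the smallest p (log2FC -0.27, DESeq2 adjusted p = 0.197), and 10 of the 13 had a log2FC below 0.

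The 3 calls in the upward direction came from stress and death outputs. Sesn2, the leucine sensor and inhibitor of mTORC1 signalling that both ATF4 and p53 induce, had 815, 906 and 768 normalised counts in control and 2111, 1047 and 1615 in Rx-Dicer samples. All Rx-Dicer values exceeded all controls, but Rx-Dicer 2 did so only narrowly. Sesn2 rose by 0.94 ± 0.22 on the log2 scale (DESeq2 adjusted p = 0.00248, edgeR adjusted p = 0.183), with a DESeq2 adjusted p of 0.0522 when Rx-Dicer 3 was left out and a log2FC of 1.17 when Rx-Dicer 2 was. The order of its Rx-Dicer values was also that of the 8 microglia and macrophage markers. These summed to 5316, 1728 and 3288 normalised counts in Rx-Dicer samples 1 to 3 and to 1451 to 1782 in control samples. None was at 0, and 2 were called higher, beside 1.75% of all genes. The same order of the Rx-Dicer libraries held for Ddit3, Phgdh and Psat1 among the 10 genes. It also held for Bcl2l11, Tnfrsf10b and Bbc3 among the death effector genes described next. The part of microglia in any of these results was not tested. Of the 10 genes in the list of Sesn2, 7 had an adjusted p, and Sesn2 alone was called. Fgf21 had no count in any sample. Gdf15 and Adm2, with 31 and 49 raw counts in all, had no adjusted p and so could not be called.

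Of 5 death effector genes listed downstream of CHOP, DESeq2 called 2 higher. Bcl2l11, the gene of the pro-apoptotic BCL2 family member BIM, had 952, 1071 and 1059 normalised counts in control and 2088, 1819 and 1956 in Rx-Dicer samples. The groups were far apart relative to their spread. Bcl2l11 rose by 0.93 ± 0.13 on the log2 scale (DESeq2 adjusted p = 4.01e-10, edgeR adjusted p = 0.024) and was called in all 17 alternatives.
Tnfrsf10b, the gene of a TRAIL death receptor that CHOP and p53 both activate, had 248, 200 and 232 normalised counts in control and 538, 394 and 414 in Rx-Dicer samples. Every Rx-Dicer value exceeded every control. It rose by 0.99 ± 0.20 on the log2 scale (DESeq2 adjusted p = 1.23e-04, edgeR adjusted p = 0.1201).
The other three were chosen for mention after their values were seen. Pmaip1, the gene of NOXA, had 519, 65.2 and 118 normalised counts in control and 899, 788 and 638 in Rx-Dicer samples, so that control 1 stood apart from the other controls. Its log2FC was 1.73 ± 0.85 (DESeq2 adjusted p = 0.356), and 3.07 (DESeq2 adjusted p = 1.45e-23) without control 1. With each library left out in turn it ran from 1.28 to 3.07, and Pmaip1 was called in only 1 of its 17 alternatives. Bbc3, the gene of PUMA, had 475, 462 and 477 normalised counts in control and 781, 465 and 746 in Rx-Dicer samples. Rx-Dicer 2 lay within the control range, and the log2FC was 0.49 ± 0.20 (DESeq2 adjusted p = 0.204), or 0.70 (DESeq2 adjusted p = 2.78e-05) without that library. With each library left out in turn it ran from 0.36 to 0.70, and Bbc3 was called in only 1 of its 17 alternatives. Ero1l, the gene of an endoplasmic reticulum oxidase, had a log2FC of 0.25 ± 0.12 (DESeq2 adjusted p = 0.371). Unadjusted p-values were under 0.05 for all 5 by DESeq2 and by edgeR, beside 13.1% and 12.9% of all genes. Bbc3 and Pmaip1 are, like Tnfrsf10b and Sesn2, also known targets of p53, and neither the part of CHOP nor that of p53 was tested.
Bcl2l11 was the only one of the called genes named here with a miR-9 word in its 3′ UTR. That word occurred in 4.38% of all genes with a 3′ UTR. None of these called genes held the let-7 word, and the part of either miRNA in their changes was not tested. The word in Bcl2l11 lies at chr2:128160375-128160382 on the plus strand of GRCm38. It is shown with 10 bases on either side and the word in capitals.
Bcl2l11, miR-9 word: acacacacacACCAAAGAcatacttggt

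**Figure D5:**
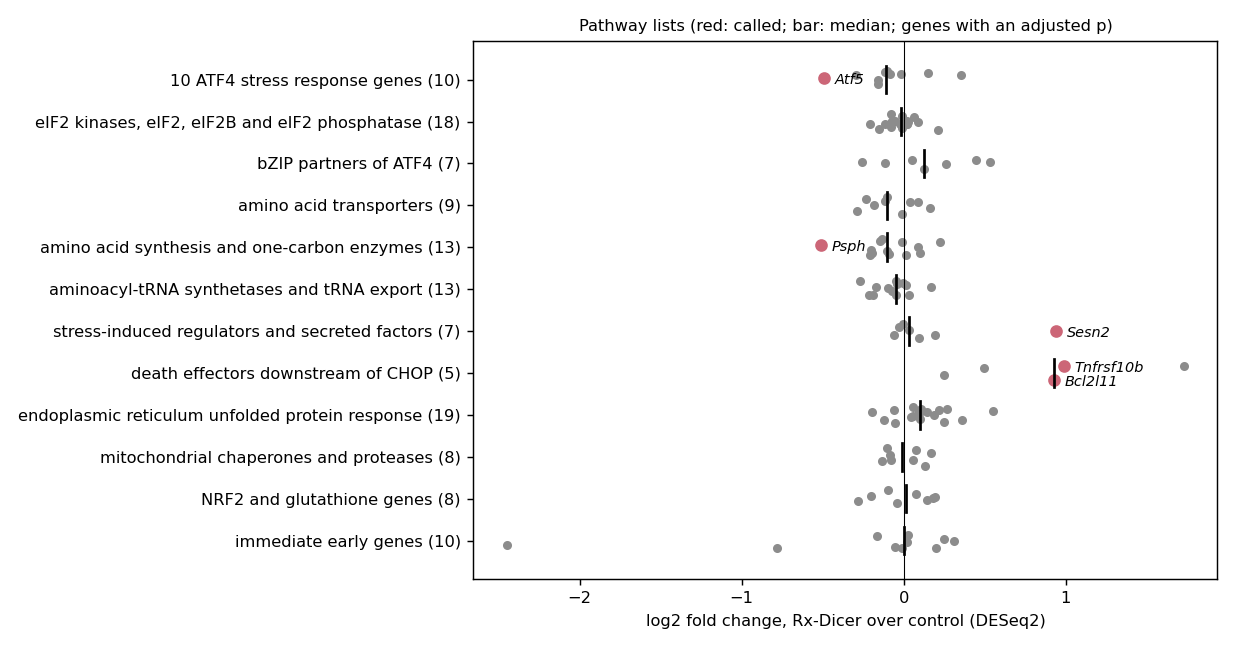
Log2 fold change (Rx-Dicer over control, DESeq2) of every gene with an adjusted p in the 10 genes and in each of the 11 lists, with called genes in red, black bars for medians and the number of genes in parentheses. Sesn2, Tnfrsf10b and Bcl2l11 lie near 1 and Psph and Atf5 near -0.5, while the eIF2 list stays between -0.21 and 0.21.

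Neighbouring stress pathways gave 0 calls by DESeq2 and by edgeR. Unadjusted p-values under 0.05 numbered 2 (DESeq2) and 3 (edgeR) in the unfolded protein response list, 1 and 0 among the immediate early genes, and 0 by both tools in the mitochondrial and NRF2 lists. Among 19 genes of the endoplasmic reticulum unfolded protein response, 15 had a log2FC above 0, beside 8538 of all 17127 genes tested. Dnajb9, a co-chaperone induced through IRE1 and XBP1, had 700, 532 and 578 normalised counts in control and 738, 875 and 1037 in Rx-Dicer samples. Its groups did not overlap, and its log2FC was 0.55 ± 0.18 (DESeq2 adjusted p = 0.0604). Dnajb9 was called in 4 alternatives, among them scaling to total counts (0.0481). In this list, 3 genes had groups that did not overlap, all higher in Rx-Dicer samples, beside 8.47% of all genes. Among them Edem1, mentioned after its values were seen, had a log2FC of 0.36 ± 0.12 (DESeq2 adjusted p = 0.0632). The list gave 1 or 2 calls in 6 of its 17 alternatives. Of 8 mitochondrial chaperones and proteases, Hspd1 had the smallest p (log2FC 0.17, DESeq2 adjusted p = 0.663), and of 9 NRF2 and glutathione genes it was Gpx4 (log2FC -0.20, DESeq2 adjusted p = 0.668). The 10 immediate early genes, which respond to tissue handling as well as to signalling, also gave 0 calls. Fosb had the smallest p among them, with 20.8, 2.04 and 47.9 normalised counts in control and 5.15, 3.06 and 4.75 in Rx-Dicer samples, and 2 of 3 controls were far above the rest (log2FC -2.45 ± 0.96, DESeq2 adjusted p = 0.169).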

How the data were processed

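Directional libraries from rostral telencephalon of 3 control and 3 Rx-Dicer samples were sequenced in 100 bp pairs. For each gene the authors deposited a raw count of reads, made with Trim Galore 0.6.5, HISAT2, GRCm38.p6 and HTSeq 0.12.4 in union mode with reverse strand and Ensembl genes. Reads on several genes or places were not counted. The 2 files of a sample differed by little more than sampling noise (chi-square per degree of freedom 1.13 to 1.52, against 22.5 to 32.6 between samples), so they were treated as repeat runs of 1 library and summed. Total counts of 34471501 to 48373468 put 3 counts at 0.0620 to 0.0870 CPM, a floor that covers counting error only.

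Genotypes were compared over all genes by the Wald test of DESeq2 1.42.0 under R 4.3.3, the study's tool, with median-of-ratios size factors, genotype as the only term, unshrunken log2 fold changes and Benjamini-Hochberg adjustment with independent filtering. A call needed an adjusted p below 0.05 and a log2 fold change beyond 0.32 either way. The first alternative was the quasi-likelihood test of edgeR 4.0.16 (TMM factors), for which a gene needed 10 counts or more in 3 samples. Both tools were also run on simulated data, which is not used here to vouch for any call. Genes per length used exon unions of the GENCODE annotation, which held 55144 of the 55471 identifiers.

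The members and lists were chosen with earlier results of these data known. Named were the 10 genes, Dicer1, and from each list every called gene or, where none was called, the gene with the smallest p. Replicate numbers are shared by the genotypes in the titles, but same-numbered samples did not deviate together (correlations 0.189, 0.0372 and -0.143), so the numbers were not used as pairs. Other alternatives were other scalings, filters and thresholds, each file alone, a replicate block, a per-sample correction for GC content and gene length (log2 values, pseudocount 0.5, natural splines of 5 degrees of freedom each), and each library left out. The study's small RNA libraries were not analysed here.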

Additional observations from a re-analysis of the deposited data

How the results depend on the processing

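Of the 10 genes, 0 were called higher in all 17 alternatives. The count called lower fell from 1 to 0 with edgeR and with a minimum of 1.5-fold, and was 0 to 1 with 1 library left out (0 without control 1, 2 or 3). The median log2 fold change of the 10 ran from -0.20 to 0.0004. Signs turned for Trib3 (-0.18 to 0.51 with 1 library left out; -0.07 without control 1), Chac1 (-0.57 to 0.11), Asns (-0.19 to 0.0233), Slc7a11 (-0.41 to 0.0652) and Psat1 (-0.22 to 0.17, and 0.0007 with scaling to total counts). Other pathway genes called higher numbered 1 with edgeR, 5 with total counts, 5 at an adjusted p under 0.1 and 2 to 5 with 1 library left out (5 without control 1 or Rx-Dicer 2). Those called lower numbered 0 with edgeR, without independent filtering, with the first or second file alone, with the replicate block and at 1.5-fold, and 0 to 1 with 1 library left out (0 without control 1 or 3, and Fosb, adjusted p = 0.0228, without control 2, while Psph lost the call without any 1 of the controls). The causes were not tested. With the replicate block, Atf5 stayed called (adjusted p = 0.0426) and 314 genes were called in all, against 502 without it. Over all genes, 8 were called with edgeR, 322 without independent filtering, 297 at 1.5-fold and 286 to 637 with 1 library left out. Atf3 and Chac1 rested on the fewest counts of the 10 genes, 447 and 186 in all.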
